A study of Mus musculus with 2 samples.

Results

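The 39 genes described here encode the core enzymes of central carbon metabolism and were chosen by name from the 14886 protein-coding genes of a ribosome profiling experiment in mouse lung fibroblasts. All 39 are listed in the count table. They comprise 13 enzymes of glycolysis, 11 of pyruvate and lactate metabolism, 11 of the tricarboxylic acid (TCA) cycle and 4 of the pentose phosphate pathway. Phosphofructokinases and transporters were left out by the choice. The experiment compared 1 library titled IR with 1 library titled NC. For both the labels give the cell type only, mouse lung fibroblasts, and no genotype, agent, dose, time or number of animals, and they do not write out IR or NC. The series concerns radiation-induced lung fibrosis and rosmarinic acid, and its design text names glycolysis among the processes assayed. Ribosome profiling counts the mRNA pieces covered by ribosomes (footprints), so a gene's count depends jointly on its mRNA and on the ribosomes per mRNA. Fewer cells of a type and less RNA per cell cannot be told apart in such bulk libraries.

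Glycolysis splits glucose into pyruvate in the cytosol, and lactate dehydrogenase can turn that pyruvate into lactate. Pyruvate can instead enter mitochondria, where the pyruvate dehydrogenase complex makes acetyl-CoA for the TCA cycle and pyruvate carboxylase makes oxaloacetate. The pentose phosphate pathway branches from glucose 6-phosphate and yields NADPH and ribose. Activated fibroblasts are known for high glycolytic flux, which feeds the synthesis of matrix proteins.

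Total counts were 888835 in IR and 695446 in NC. After TMM scaling, a correction for composition, their effective sizes were 791008 and 781455, so raw counts of the libraries can be set side by side nearly as they stand. Of total counts, before that scaling, the central carbon enzymes held 0.502% in IR and 0.6% in NC. Of the fibroblast markers 11 of 12 were above the floor of a mean of 20 counts, with summed counts of 11204 and 8606. After scaling, 8 of these had a ratio of IR to NC above 1, Lum the highest (1349 and 222). The other 3 went against the sum, namely Col3a1 (348 and 519), Pdgfra (38 and 66) and Thy1 (205 and 231). Endothelial markers summed to 6954 and 2715 counts over 8 genes, of which Emcn held 6842 and 2618. Each of the others had 53 counts or fewer in each library, among them Pecam1 (8 and 2) and Cdh5 (1 and 0). Tie1 (21 and 53) and Cldn5 (0 and 5) went against the sum. Mesothelial markers summed to 478 and 101 over 4 genes, of which Wt1 held 417 and 77. Epithelial markers summed to 95 and 33 (8 genes), macrophage and leukocyte markers to 443 and 326 (6 genes), smooth muscle and pericyte markers to 1233 and 849 (9 genes) and blood genes to 1 and 6 (2 genes). At 0 in IR alone were Epcam, Nkx2-1, Cldn5, Rgs5, Alas2 and Myh11, and Myh11, a smooth muscle myosin, had 24 counts in NC, against the direction of its list's sum. At 0 in NC alone were Sftpa1, Foxj1, Ager, Cdh5, Ptprc, Cd68, Lyz2, Itgam, Cspg4, Upk3b, Lrrn4 and Alb. The part of these cell types in the values below was not tested.

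There was 1 library per group, so no replicate spread exists and no test between conditions was possible. Each fold (IR over NC, after TMM scaling) has an exact 95% interval that covers counting error only, and no molecular identifiers are mentioned, so copies of 1 footprint may have been counted more than once. A gene is called higher or lower beyond counting error where that interval does not hold 1.

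After TMM scaling, the central carbon enzymes as a group gave about as many footprints in IR as in NC, with single enzymes apart in both directions. Summed counts of all 39 were 4464 and 4175, a fold of 1.06 (1.01 to 1.1), a small difference beyond counting error after TMM scaling. Its direction rests on that scaling. Of total counts the enzymes held 0.502% (0.488 to 0.517) in IR and 0.6% (0.582 to 0.619) in NC, a lower share in IR. Over all genes the summed fold was 1.26 (1.26 to 1.27), a value set by the TMM factors alone and not a measured background. Of the 33 enzymes above the floor, 10 were higher in IR beyond counting error, 7 were lower and 16 were neither. By the same rule 23.5% of all 5989 such genes were higher and 23.7% lower, so the enzymes' shares of 30.3% and 21.2% lay near the background. The same background applies to the counts of each pathway below, and no pathway's count is read as particular to it. With total-count scaling, which moves every log2 ratio by -0.34, the counts turned to 6 higher and 14 lower, beside 13.1% and 39.1% of all genes. Under that scaling Hk1, Aldoa, Pdk1 and Pgd were no longer higher beyond counting error, and Pgk1, Eno1, Pkm, Dld, Ogdh, G6pdx and Taldo1 became lower beyond it. At least 2-fold higher were 3 enzymes, Fh1, Pcx and Idh3a, beside 11.8% of all genes, and 1 enzyme, Sucla2, was at least 2-fold lower, beside 11.9%. The median log2 ratio of the 33 enzymes was -0.02 (95% interval -0.27 to 0.27), and that of all genes above the floor was -0.02. The log2 ratios of the enzymes ranged from -1.52 to 2.08 with an SD of 0.74, against 0.98 over all genes. Where the mean count was 100 or more, 4 of 13 enzymes were higher in IR and 3 lower, beside 38.2% and 25.8% of the 1332 genes that reached that mean. Their median log2 ratio was 0.01 (-0.43 to 0.59) and that of all such genes 0.10 (0.05 to 0.15). The remaining 6 enzymes, Aldoc, Ldha, Ldhb, Pdk2, Pdk4 and Suclg1, had mean counts of 18 or less and are given as values only.

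**Figure D1:**
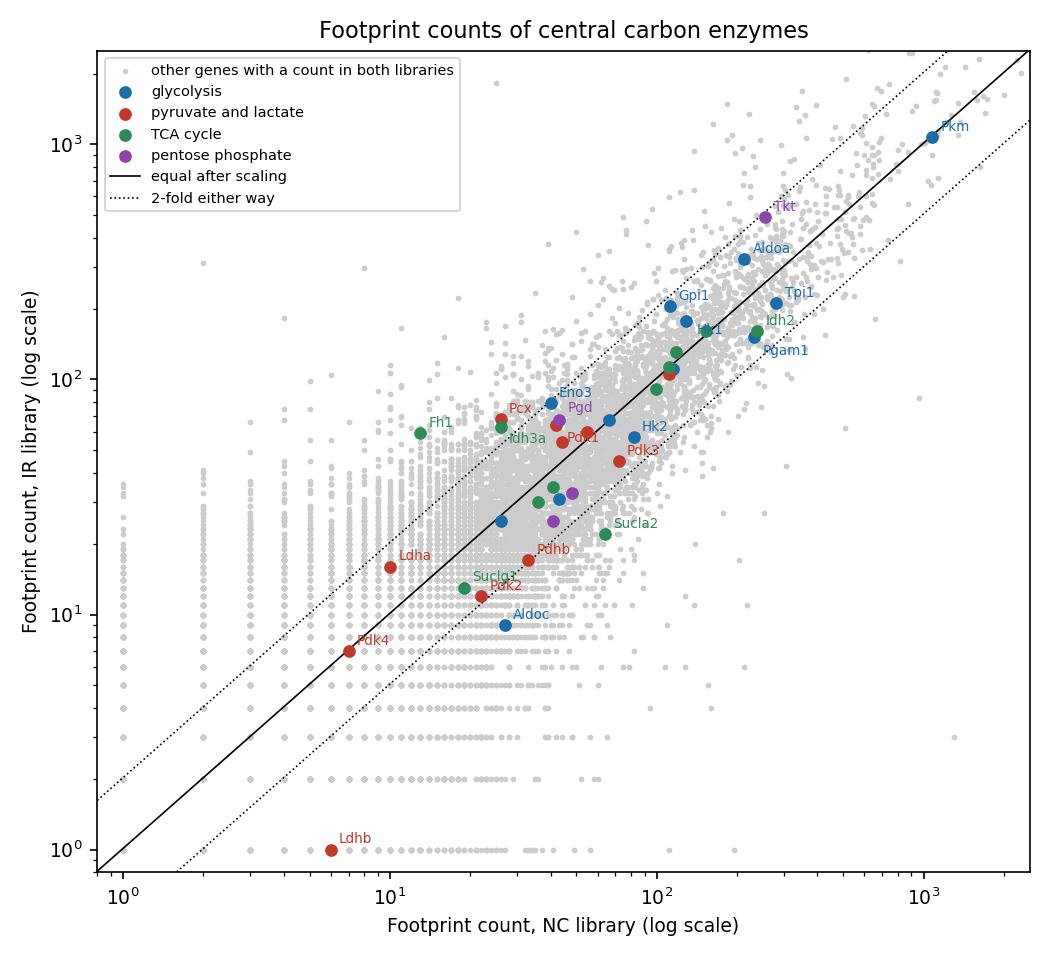
Footprint counts of the 39 enzymes in NC (x axis) and IR (y axis), both on log scales, coloured by pathway, over the other genes with a count in both libraries (grey, the most abundant lie outside the axes). The solid line marks equality after scaling and the dotted lines 2-fold either way. Names are given for enzymes beyond counting error, for those below the floor and for Pkm. Fh1, Pcx and Idh3a lie above the upper dotted line, and Sucla2, Aldoc and Ldhb below the lower one.

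**Figure D2:**
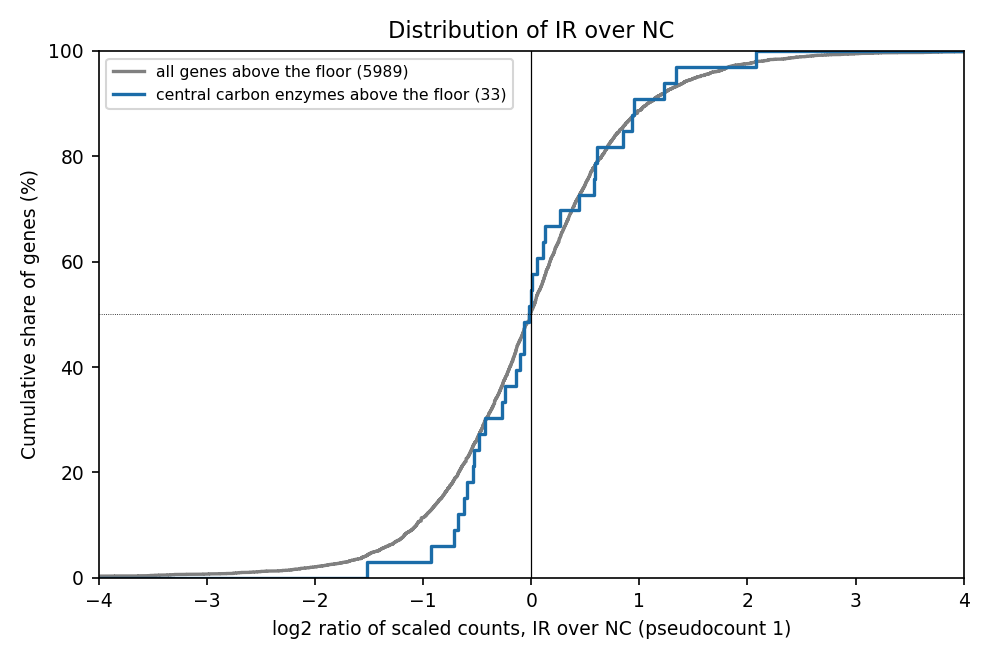
Cumulative share of genes (y axis, percent) by log2 ratio of scaled counts, IR over NC (x axis), for the 33 enzymes and all 5989 genes above the floor. The curves cross 50% at nearly the same log2 ratio, -0.02 for both, and the enzymes' curve starts later on the left, at -1.52.

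The stretches of DNA before the starts of the enzymes above the floor that differed at least 2-fold, and of Hk2, whose balance with Hk1 differed between the libraries, are shown because hypoxia-inducible factors and MYC act on many glycolytic promoters in mammals. Each line holds the 250 bases before a RefSeq start (GRCm38.p6), read 5′ to 3′ on the gene's strand. Capitals mark ACGTG, the core of the hypoxia response element, on either strand. For Idh3a no such stretch was at hand, and for Pcx the upstream-most of its starts is shown. The stretch of Sucla2 lies inside the span that the count table gives this gene, whose RefSeq start is further downstream.
Fh1, chr1:175625636-175625885, minus strand: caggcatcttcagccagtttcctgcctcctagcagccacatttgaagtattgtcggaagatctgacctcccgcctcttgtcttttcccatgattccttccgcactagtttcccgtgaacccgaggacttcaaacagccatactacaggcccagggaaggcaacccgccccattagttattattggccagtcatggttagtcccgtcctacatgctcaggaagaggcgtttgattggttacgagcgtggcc
Pcx, chr19:4510222-4510471, plus strand: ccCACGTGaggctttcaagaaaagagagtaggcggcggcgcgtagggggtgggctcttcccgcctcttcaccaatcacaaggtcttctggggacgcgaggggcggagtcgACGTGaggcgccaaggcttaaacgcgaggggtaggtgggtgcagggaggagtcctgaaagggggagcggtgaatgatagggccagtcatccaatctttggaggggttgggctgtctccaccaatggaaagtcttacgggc
Sucla2, chr14:73552536-73552785, plus strand: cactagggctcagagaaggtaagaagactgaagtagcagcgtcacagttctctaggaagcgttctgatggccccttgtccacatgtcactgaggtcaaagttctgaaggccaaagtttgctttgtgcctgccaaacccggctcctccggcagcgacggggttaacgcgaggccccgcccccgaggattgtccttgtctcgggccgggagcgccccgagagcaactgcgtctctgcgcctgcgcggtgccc
Hk2, chr6:82774455-82774704, minus strand: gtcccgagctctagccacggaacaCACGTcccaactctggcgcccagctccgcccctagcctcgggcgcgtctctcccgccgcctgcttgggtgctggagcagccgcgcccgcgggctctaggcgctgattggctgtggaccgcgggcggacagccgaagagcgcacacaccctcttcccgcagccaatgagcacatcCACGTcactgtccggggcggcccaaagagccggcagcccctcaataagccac
The stretches of Fh1 and Sucla2 hold no ACGTG. Those of Pcx and Hk2 do, and in Pcx the first match lies in CACGTG, the E-box bound by MYC and related factors, which contains ACGTG on both strands. The stretch before the downstream start of Pcx, which is not shown, holds neither. Of the 38 enzymes with at least 1 stretch, 12 (31.6%) held ACGTG and 4 (10.5%) held CACGTG. Among all genes of the table above the floor that had a stretch, 27.2% held ACGTG and 10.5% held CACGTG. Of the enzymes beyond counting error, 2 of 9 higher ones and 4 of 7 lower ones held ACGTG. Apart from Hk2 and Pcx, enzymes whose balance with another enzyme differed between the libraries are not shown. Of those with a stretch, Aldoa, Pdk2 and Pdhb held ACGTG, and Hk1, Aldoc, Eno1, Eno3, Pdk1, Pdha1 and Idh3b did not. Only these letters were searched, in these stretches alone.

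In glycolysis the enzymes parted in both directions, and the interval of the most counted of them, Pkm, held 1. Of 12 glycolytic enzymes above the floor, 4 were higher (Hk1, Gpi1, Aldoa, Eno3), 3 lower (Hk2, Tpi1, Pgam1) and 5 neither. Their median log2 ratio was -0.04 (-0.48 to 0.59). Over all 13 glycolytic genes, Aldoc included, summed counts of 2522 and 2442 gave a fold of 1.02 (0.965 to 1.08), and without Pkm, which held the most counts, 1.05 (0.972 to 1.13).

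Hexokinases phosphorylate glucose and so trap it in the cell. Hk1, the broadly expressed form, gave 177 footprints in IR against 129 in NC, or 1.36-fold (1.07 to 1.71). Hk2, the inducible form, gave 57 and 82 footprints, or 0.687-fold (0.481 to 0.975). The forms thus lay on opposite sides of equality, each with an interval bound near 1. Within a library the ratio of Hk2 to Hk1 needs no scaling. It was 0.322 in IR and 0.636 in NC, lower in IR by a factor of 0.507 (0.330 to 0.776).

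Gpi1, the isomerase that converts glucose 6-phosphate to fructose 6-phosphate, gave 205 and 112 footprints, or 1.81-fold (1.43 to 2.30). Phosphofructokinases, which act next, went both ways, with Pfkl at a fold of 2.02 (1.76 to 2.33), Pfkm at 1.28 (0.906 to 1.83) and Pfkp at 0.674 (0.507 to 0.894). Aldolase splits the resulting bisphosphate. Aldoa, its main form, gave 324 and 213 footprints, or 1.5-fold (1.26 to 1.79). Aldoc, the form best known from brain, gave 9 and 27 footprints, or 0.329-fold (0.136 to 0.721), and lies below the floor. The ratio of Aldoa to Aldoc was 36.0 in IR and 7.89 in NC, a 4.55-fold difference (2.03 to 11.2) that rests on the few Aldoc counts.

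Among the enzymes of the lower, three-carbon stretch, those at its start and middle were lower or within counting error of 1. Tpi1, which interconverts the triose phosphates, gave 211 and 281 footprints, or 0.742-fold (0.618 to 0.890). Gapdh, which oxidises glyceraldehyde 3-phosphate and often serves as a reference gene, gave 67 and 66 footprints, or 1.0-fold (0.703 to 1.43). Pgk1, the first ATP-forming step, gave 111 and 115, or 0.954-fold (0.728 to 1.25). Of these only Tpi1 lay beyond counting error. Pgam1, which moves the phosphate on 3-phosphoglycerate, gave 152 and 232 footprints, or 0.647-fold (0.524 to 0.798).

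The enolases, which make phosphoenolpyruvate, differed among themselves. Eno1, the common form, gave 31 and 43 footprints, or 0.712-fold (0.434 to 1.16). Eno2, the neuronal form, gave 25 and 26, or 0.95-fold (0.526 to 1.71). Eno3, the muscle form, gave 79 and 40, or 1.95-fold (1.32 to 2.93), and alone of the enolases lay beyond counting error. The ratio of Eno1 to Eno3 was 0.392 in IR and 1.07 in NC, lower in IR by a factor of 0.367 (0.192 to 0.693), whereas the ratio of Eno1 to Eno2 did not differ beyond counting error (0.752, 0.344 to 1.64). Pkm, pyruvate kinase, lies on chromosome 9 at 59656368 to 59679375 of mm10. Its transcripts gave 1074 footprints in IR against 1076 in NC, or 0.986-fold (0.905 to 1.07), the tightest interval of the enzymes. It was lower beyond counting error with total-count scaling (0.781) and with scaling to genes whose mean reached 100 counts (0.918). The table does not separate the PKM1 and PKM2 splice forms.

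Gapdh, Eno1, Pgk1, Aldoa, Tpi1, Pgam1, Pkm and Ldha have near-identical copies in the mouse genome, most of them processed pseudogenes, and how reads with several matches were handled is not given in the sources used here. Their counts are therefore uncertain. A further limit is overlap: 8 enzymes share bases with a gene on the opposite strand, and without the strand setting the reads cannot be told apart. The partner of Idh3b is Nop56 (168 and 175 counts), that of G6pdx is Ikbkg (31 and 53) and that of Tpi1 is Spsb2 (17 and 20). The partners of Pdha1, Pcx, Sucla2, Fh1 and Mdh1 had 10 counts or fewer in each library.

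**Figure D3:**
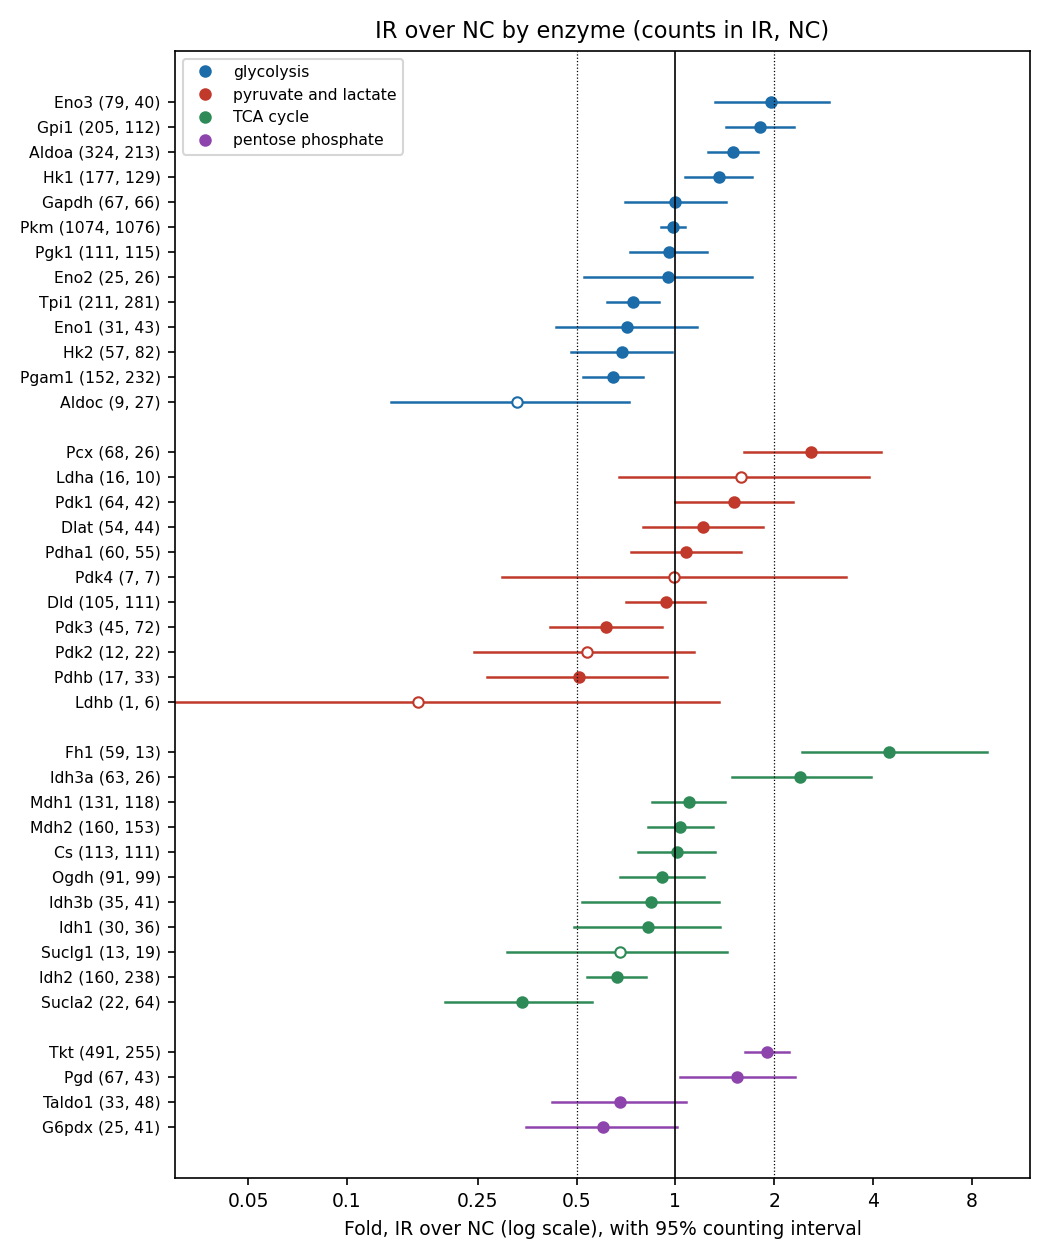
Fold of IR over NC (x axis, log scale) with its 95% counting interval for each of the 39 enzymes (y axis, with the counts in IR and NC), grouped and coloured by pathway. Open circles are enzymes below the floor, and the interval of Ldhb runs past the left edge. Each pathway holds enzymes on both sides of 1, and Fh1 (4.48) and Sucla2 (0.340) are the farthest apart among enzymes above the floor.

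At the pyruvate branch point, pyruvate carboxylase was higher in IR while the subunits of pyruvate dehydrogenase were lower or within counting error of 1. Of 7 enzymes of this group above the floor, Pcx and Pdk1 were higher and Pdhb and Pdk3 lower. The summed counts of the 11 genes were 449 and 428, a fold of 1.04 (0.906 to 1.19). Pcx, on chromosome 19 at 4510472 to 4621752, makes oxaloacetate from pyruvate and so refills the TCA cycle. Its mRNA gave 68 footprints in IR against 26 in NC, or 2.58-fold (1.62 to 4.23). The ratio of Pcx to Pdha1 was 1.13 in IR and 0.473 in NC, a 2.39-fold difference (1.29 to 4.49).

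The pyruvate dehydrogenase complex joins 3 catalytic components. Pdha1, the alpha subunit of its first enzyme, gave 60 and 55 footprints, or 1.08-fold (0.735 to 1.58). Pdhb, the beta subunit of the same enzyme, gave 17 and 33, or 0.509-fold (0.266 to 0.940). The ratio of Pdha1 to Pdhb was 3.53 in IR and 1.67 in NC, a 2.11-fold difference (1.01 to 4.52) whose lower bound is close to 1. Dlat, the acetyltransferase core, gave 54 and 44 footprints, or 1.21-fold (0.799 to 1.85). Dld, the dehydrogenase that this complex shares with other 2-oxoacid dehydrogenases, gave 105 and 111, or 0.935-fold (0.709 to 1.23). Over these 4 genes the sums were 236 and 243, a fold of 0.959 (0.799 to 1.15).

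Pyruvate dehydrogenase kinases switch the complex off by phosphorylation, and Pdk1 is a known target of hypoxia-inducible factor. Pdk1 gave 64 footprints in IR against 42 in NC, or 1.51-fold (1.0 to 2.28), with a lower bound barely above 1. Its call was lost with total-count scaling, with scaling to genes whose mean reached 100 counts and with halved counts. Pdk3 gave 45 and 72, or 0.617-fold (0.416 to 0.908). Pdk2, at 12 and 22 counts, and Pdk4, at 7 in each library, were below the floor. The kinases thus showed no shared direction, and their sums of 128 and 143 gave a fold of 0.884 (0.691 to 1.13). The ratio of Pdk1 to Pdk2 was 5.33 in IR and 1.91 in NC, a 2.77-fold difference (1.17 to 6.86).

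Lactate dehydrogenase, which interconverts pyruvate and lactate, could not be resolved. Ldha, the subunit favoured in glycolytic cells, gave 16 and 10 footprints, or 1.58-fold (0.674 to 3.90). Ldhb, the heart-type subunit, gave 1 and 6, or 0.165-fold (0.00358 to 1.36). A difference smaller than these wide intervals was not detectable at this depth.

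In the TCA cycle, Fh1 and Sucla2 were the enzymes farthest from equality, in opposite directions. Of 10 TCA enzymes above the floor, Fh1 and Idh3a were higher, Idh2 and Sucla2 lower and 6 neither, near the background of 23.5% and 23.7%, with a median log2 ratio of -0.06 (-0.59 to 1.23). Over all 11 TCA genes, summed counts were 877 and 918, a fold of 0.944 (0.859 to 1.04). Cs, citrate synthase, the entry step, gave 113 and 111 footprints, or 1.01-fold (0.767 to 1.32).

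Isocitrate dehydrogenases make 2-oxoglutarate, with NADP in the cytosol (Idh1) and mitochondria (Idh2) and with NAD in the mitochondrial complex of Idh3a, Idh3b and Idh3g. Idh1 gave 30 and 36 footprints, or 0.823-fold (0.490 to 1.37). Idh2 gave 160 and 238, or 0.664-fold (0.540 to 0.815). The ratio of Idh1 to Idh2 did not differ beyond counting error (1.24, 0.706 to 2.16). Idh3a, the catalytic subunit of the NAD complex, on chromosome 9 at 54586511 to 54604661, gave 63 footprints in IR against 26 in NC, or 2.39-fold (1.49 to 3.94). Its partners lay within counting error of 1. Idh3b gave 35 and 41 footprints, or 0.843-fold (0.521 to 1.36), and Idh3g gave 41 and 43, or 0.942-fold (0.599 to 1.48). The ratio of Idh3a to Idh3b was accordingly 1.80 in IR and 0.634 in NC, a 2.82-fold difference (1.42 to 5.68).

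Ogdh, the first enzyme of the 2-oxoglutarate dehydrogenase complex, gave 91 and 99 footprints, or 0.908-fold (0.676 to 1.22). Succinyl-CoA ligase, the next step, pairs the alpha subunit Suclg1 with the ADP-linked beta subunit Sucla2 or the GDP-linked Suclg2. Sucla2, on chromosome 14 at 73525319 to 73596142, gave 22 footprints in IR against 64 in NC, or 0.340-fold (0.199 to 0.559), the lowest among enzymes above the floor. Suclg1 had 13 and 19 counts and Suclg2 had 5 and 11, both below the floor and without a difference beyond counting error. The ratio of Sucla2 to Suclg1 was 1.69 in IR and 3.37 in NC, a factor of 0.506 with an interval that holds 1 (0.198 to 1.31).

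Fh1, fumarate hydratase, turns fumarate into malate and is a tumour suppressor in human hereditary leiomyomatosis. On chromosome 1 at 175600374 to 175625635, it gave 59 footprints in IR against 13 in NC, or 4.48-fold (2.43 to 8.91), the highest among the enzymes. Malate dehydrogenases, which follow, lay within counting error of 1. Mdh1, the cytosolic form, gave 131 and 118 footprints, or 1.10-fold (0.849 to 1.42). Mdh2, the mitochondrial form, gave 160 and 153, or 1.03-fold (0.823 to 1.30). The ratio of Mdh1 to Mdh2 was 0.819 and 0.771, a factor of 1.06 (0.75 to 1.5).

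In the pentose phosphate pathway enzymes lay on both sides of equality. G6pdx, glucose 6-phosphate dehydrogenase, the rate-limiting NADPH-forming step, gave 25 and 41 footprints, or 0.602-fold (0.351 to 1.01). Pgd, the second NADPH-forming step, gave 67 and 43, or 1.54-fold (1.03 to 2.31). In the non-oxidative arm, which returns pentoses to glycolysis, Tkt, transketolase, on chromosome 14 at 30548359 to 30574722, gave 491 footprints in IR against 255 in NC, or 1.9-fold (1.63 to 2.22). Taldo1, transaldolase, which works beside it, gave 33 and 48, or 0.679-fold (0.422 to 1.08). Tkt and Pgd thus lay above equality beyond counting error, and the other two enzymes did not differ beyond it. The sums of 616 and 387 gave a fold of 1.57 (1.38 to 1.79), and without Tkt the sums of 125 and 132 gave 0.936 (0.727 to 1.2).

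Of 15 pairs of isozymes, subunits or branch-point enzymes compared within each library, 7 differed beyond counting error, namely Hk2 to Hk1, Aldoa to Aldoc, Eno1 to Eno3, Pdk1 to Pdk2, Idh3a to Idh3b, Pdha1 to Pdhb and Pcx to Pdha1. The intervals were not adjusted for the number of pairs. No share over other gene pairs was computed, and the 23.5% and 23.7% of all genes come from a different rule, for single genes. The count is therefore not read as a trait of these pairs. Nor are the pairs all separate, since Pdk2, Pdha1 and Eno1 each serve in more than 1. Of the pairs that did not differ, Pdk3 to Pdk2, Pdk4 to Pdk2, Sucla2 to Suclg1, Ldha to Ldhb and Ldha to Pdha1 rest on at least 1 gene below the floor.

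**Figure D4:**
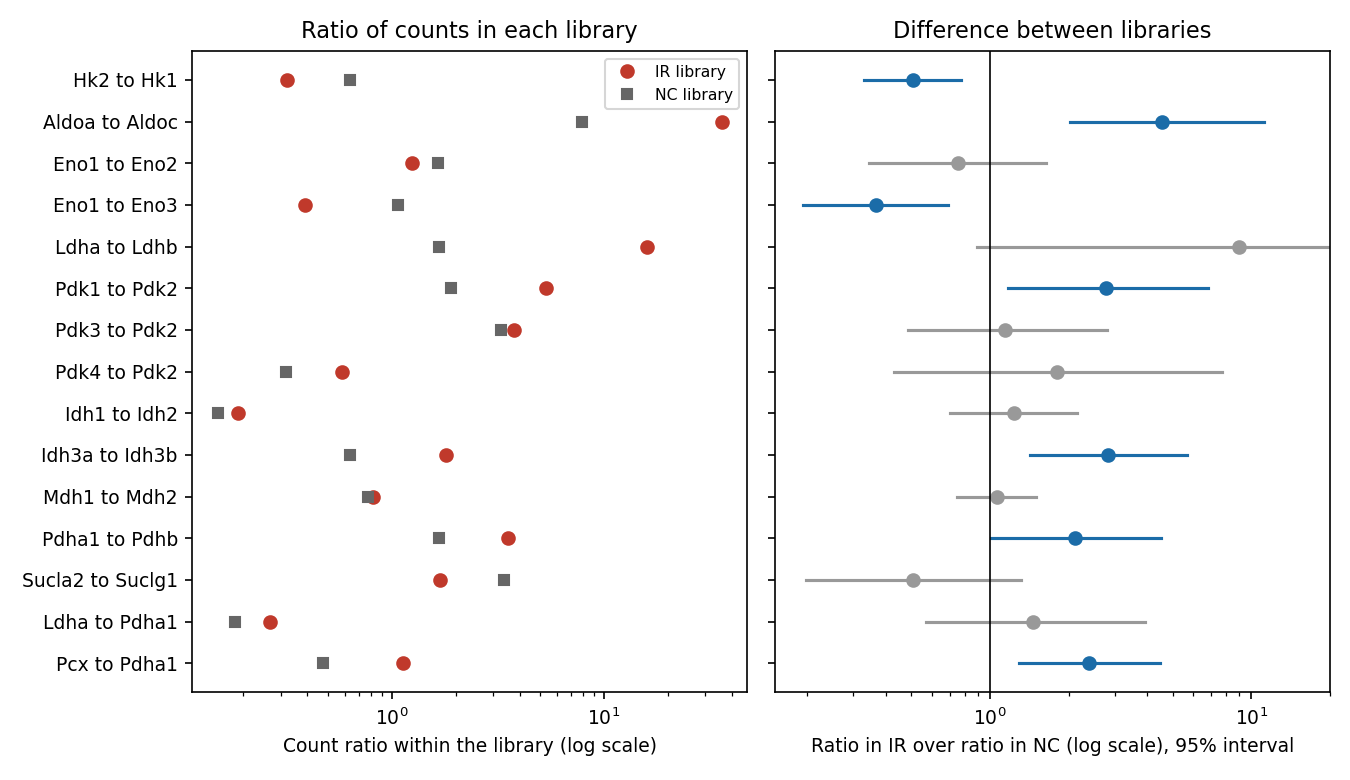
Left, ratio of counts of 2 genes within the IR library (circles) and the NC library (squares), on a log scale. Right, the ratio in IR over that in NC with its exact 95% interval (log scale), in blue where it does not hold 1, and the interval of Ldha to Ldhb runs past the right edge. The largest difference in blue is that of Aldoa to Aldoc, at 4.55, and Mdh1 to Mdh2 lies nearest to 1.

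Most of the other genes of these pathways above the floor, 14 of 17, did not differ beyond counting error. Of 50 further genes, 44 are rows of the table and 17 were above the floor, of which 3 were higher beyond counting error and 0 lower, beside the background of 23.5% and 23.7%. Their median log2 ratio was 0.28 (-0.05 to 0.43). The calls of the 3 under other scalings are not given here. Sdhc, a membrane anchor of succinate dehydrogenase, gave 158 and 85 footprints, or 1.84-fold (1.40 to 2.42). Sdhd, the other anchor, gave 157 and 107, or 1.45-fold (1.13 to 1.87). The soluble subunits Sdha, at 188 and 153 counts, and Sdhb, at 47 and 50, did not differ beyond counting error. The third, Mpc2, a subunit of the mitochondrial pyruvate carrier, gave 38 footprints in IR against 2 in NC, a ratio of 18.8 (4.85 to 161), while its partner Mpc1 had 2 in each. The mean of Mpc2 lies just on the floor of 20 counts, reached only through its IR count, so its call is given as a value only. Among the further genes below the floor, Pdp1, a phosphatase that reactivates pyruvate dehydrogenase, had 20 and 6 counts, Pdpr, a regulator of that phosphatase, 9 and 21, and Ldhc, the testis lactate dehydrogenase, 6 and 0. Further genes of glycolysis and gluconeogenesis above the floor (4) and of the pentose phosphate pathway (4) held none beyond counting error.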

How the data were processed

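Ribosome footprints of 2 libraries were analysed from the authors' deposited table, whose values are whole-number counts of mapped reads per gene, per the file headers. Build mm10 and the tools HTSeq 0.9.1, TopHat2, Bowtie, cutadapt 1.9.3, DESeq2 and edgeR are listed, with no role, per the submitters' processing notes. For annotation release, strand setting and multiply matching reads, settings were not given in the sources used here. In the table, 2 columns of log CPM were not used. Groups were taken from the titles.

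Counts were scaled by TMM (edgeR 4.0.16, R 4.3.3; factors 0.89 for IR and 1.12 for NC). Folds carry no pseudocount and have Clopper-Pearson 95% intervals of the IR share. The log2 ratios used a pseudocount of 1, and genes needed a mean of at least 20 counts. With 1 library per group no test of conditions was made. Within-library ratios have exact conditional odds-ratio intervals. Intervals of medians are binomial order-statistic intervals. The interval was tried on data simulated with counting error alone. Duplicate footprints and spread between replicates were not simulated, so the interval was not tested against them. Every enzyme is named; of the further pathway genes, those beyond counting error; 1 further gene is not reported here. The members, gene lists and pairs were chosen with earlier results of these data known. Levels were not compared between genes, since coding lengths were not used. All 39 symbols matched RefSeq (GRCm38.p6), the source of the upstream DNA. Scalings by total counts, upper quartile, DESeq2 1.42.0 size factors and abundant genes, other floors, halved counts and a pseudocount of 0.5 were tried. Python 3.11.15, scipy 1.17.1, pandas 2.3.3, numpy 2.4.6 and matplotlib 3.10.9 were used.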

Additional observations from a re-analysis of the deposited data

How the results depend on the processing

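No paired analysis was possible because each group has 1 library. The median log2 ratio of the enzymes minus that of all genes stayed within its interval under the alternatives run, from -0.09 with a floor of 100 counts to 0.02 without uncertain members. The number of enzymes higher beyond counting error was 10 and became 6 with total-count scaling, which ended the calls of Hk1, Aldoa, Pdk1 and Pgd, and 4 with a floor of 100 counts, which left 13 enzymes. The number lower was 7 and became 14 with total-count scaling, 3 with that floor, 4 with counts halved before the interval (as if every footprint had been counted in duplicate), which ended the calls of Hk2, Pdhb and Pdk3, and 4 without the members that overlap a gene or have near-identical copies, which left 19 enzymes. Halving also ended the higher calls of Hk1, Pdk1 and Pgd, leaving 7. Scaling to genes whose mean reached 100 counts gave 8 higher and 9 lower, ending the higher calls of Pdk1 and Pgd and adding lower calls of Pkm and G6pdx. DESeq2 size factors and upper-quartile scaling gave 10 and 7, each keeping all 17 calls. Under every scaling and with halved counts, Gpi1, Eno3, Pcx, Idh3a, Fh1 and Tkt kept a call as higher and Tpi1, Pgam1, Idh2 and Sucla2 as lower. Of the 15 within-library ratios 5 lay beyond counting error with halved counts, those of Pdk1 to Pdk2 and Pdha1 to Pdhb no longer. That of Pcx to Pdha1 remained with a lower bound barely above 1 (2.42, 1.0 to 6.08). Most enzymes had under 100 counts on average. Among those of them above the floor, the smallest difference called was that of Hk2, at 0.687-fold, so smaller differences may have been missed.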

Other observations

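Some genes of these pathways were thinly counted. Dlst, the succinyltransferase core of the 2-oxoglutarate dehydrogenase complex, had 0 counts in IR and 2 in NC, beside 91 and 99 for Ogdh of the same complex, and Mpc1 had 2 and 2. These counts are not corrected for length, so no order of levels is drawn from them.

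The 7 enzymes on chromosome 6, Hk2, Tpi1, Gapdh, Eno2, Ldhb, Pdk4 and Suclg1, were grouped after their values were seen. Of the 4 above the floor, 0 were higher beyond counting error and 2 lower, beside 22.3% and 21.2% of all 292 genes of chromosome 6 above the floor. The summed counts of all 7 were 381 for IR against 487 for NC, or 0.773-fold, and Tpi1 (211 and 281) held most of them. Because the grouping followed the values, no conclusion is drawn from that fold. Summed over all 770 genes of that chromosome the fold was 1.5 (1.48 to 1.52). That sum is weighted by abundant genes such as Crbn (3885 and 959), and the median log2 ratio of the 292 was 0.02 (-0.07 to 0.13).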
